A study of Mus musculus with 8 samples.

Results

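Disease-associated microglia are microglia, the resident macrophages of nervous tissue, that gather at sites of neuronal damage and take on a shared programme of lipid handling, lysosomal and phagocytic genes while lowering the genes of the resting state. In mouse brain the programme is known to unfold in steps, the later of which depend on the receptor TREM2 and its signalling adaptor TYROBP. In degenerating retina, microglia and other phagocytes carrying these transcripts gather near dying photoreceptors. The 10 genes described here are Trem2, Tyrobp, Apoe, Cst7, Lpl, Spp1, Gpnmb, Clec7a, Itgax and Cd52. They were taken by gene symbol. Each symbol had 1 row, and they are 10 of the 54532 genes in the count table. All 10 passed the filter on low counts, which kept 17725 genes.

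RNA was sequenced from retina of rd10 mice, which lose rods and later cones through a mutation in Pde6b. The treated group, labelled sIVs, which the series title spells out as small intracellular vesicles, has 4 libraries, numbered 2 to 5, and the control group, labelled PBS and read here as phosphate-buffered saline, has 4, numbered 1 to 4. Both groups carry the rd10 mutation, and no wild-type retina is part of the comparison. The source of the vesicles, their dose and route, and the age, sex and time of sampling are not given in the sources used here, nor is it stated whether libraries stand for separate animals. The p-values therefore reflect library-to-library spread, which may be technical. Library totals ran from 15039385 to 16989737 counts in sIVs and from 14640235 to 15948291 counts in PBS.

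Before any result, sIVs libraries 3 and 4 have to be named, because they stood apart from the other 6. The summed level of 10 rod markers was 8933 and 8434 CPM (counts scaled to a common library size) in sIVs libraries 3 and 4. It was 38974 and 31604 CPM in sIVs libraries 2 and 5 and between 34501 and 40963 CPM in PBS. Chil3 and Ccr2, markers of circulating monocytes picked after their values were seen, were also high in sIVs libraries 3 and 4. Other monocyte and macrophage markers were not all so, as given below. Chil3 stood at 0, 11.1, 12.4 and 1.19 CPM in sIVs libraries 2 to 5, against 0 CPM in all PBS libraries, and Ccr2, the chemokine receptor gene of inflammatory monocytes, at 0.134, 7.46, 5.86 and 0.656 CPM, against at most 0.0711 CPM in PBS. The fold changes of the 10 genes are therefore given with and without sIVs libraries 3 and 4. So are the numbers of positive and negative fold changes in the gene lists, where these are stated. Without them 2 sIVs libraries remain against 4 of PBS, and 18261 genes passed the filter. What sets them apart was not tested.

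In bulk retina, a difference in the number of cells of a type and one in RNA per cell cannot be told apart. None of the 10 genes passed the test between sIVs and PBS (edgeR quasi-likelihood test, adjusted over 17725 genes, threshold 0.05). The background was 0% for the same call over all genes, where the smallest adjusted p was 0.0868. At an unadjusted p below 0.05, 4 of the 10 were higher in sIVs and 0 lower, against 9.61% and 5.63% of all genes. Those 4 were Cd52, Gpnmb, Spp1 and Clec7a. Without sIVs libraries 3 and 4 the count was 0 higher and 3 lower, against 6.73% and 7.01% of all genes. Those 3 were Apoe, Itgax and Cst7, with unadjusted edgeR p-values of 0.00383, 0.0384 and 0.0496, and none passed after adjustment. Within sIVs, library 4 held the highest value of 6 of the 10 genes and library 3 of the other 4. Leaving both out therefore lowers the sIVs level of each gene. It was done with the values known, so the p-values of that fit are descriptive only. DESeq2, run on the 33760 genes with any count, called 1 of the 10, Cd52, and 549 genes in all. On the 17725 filtered genes limma-voom called 0 of both. With sample quality weights limma-voom called 5 of the 10 (Tyrobp, Spp1, Gpnmb, Clec7a and Cd52), among 4973 of 17725 genes.

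The fold changes were spread widely. The log2 fold change of sIVs over PBS was positive for 9 of the 10 genes, against 49% of all genes tested, with a median of 0.56 over the 10 and of -0.01 over all genes. Without sIVs libraries 3 and 4 it was positive for 2 of the 10, Cd52 and Spp1, against 49.8% of all genes, and the median over the 10 was -0.34. In 8 of the 10 genes both of these libraries lay above every PBS library, against 24.8% of all genes. The exceptions were Apoe and Lpl. A log2 fold change above 1 was reached by 3 of the 10, Gpnmb, Clec7a and Cd52, against 2.53% of all genes. Without libraries 3 and 4 it was reached by 0 of the 10, against 0.915% of all genes. In none of the 10 did all 4 sIVs libraries lie above every PBS library, against 4.42% of all genes, and in none did all 4 lie below, against 3.36%.

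**Figure D1:**
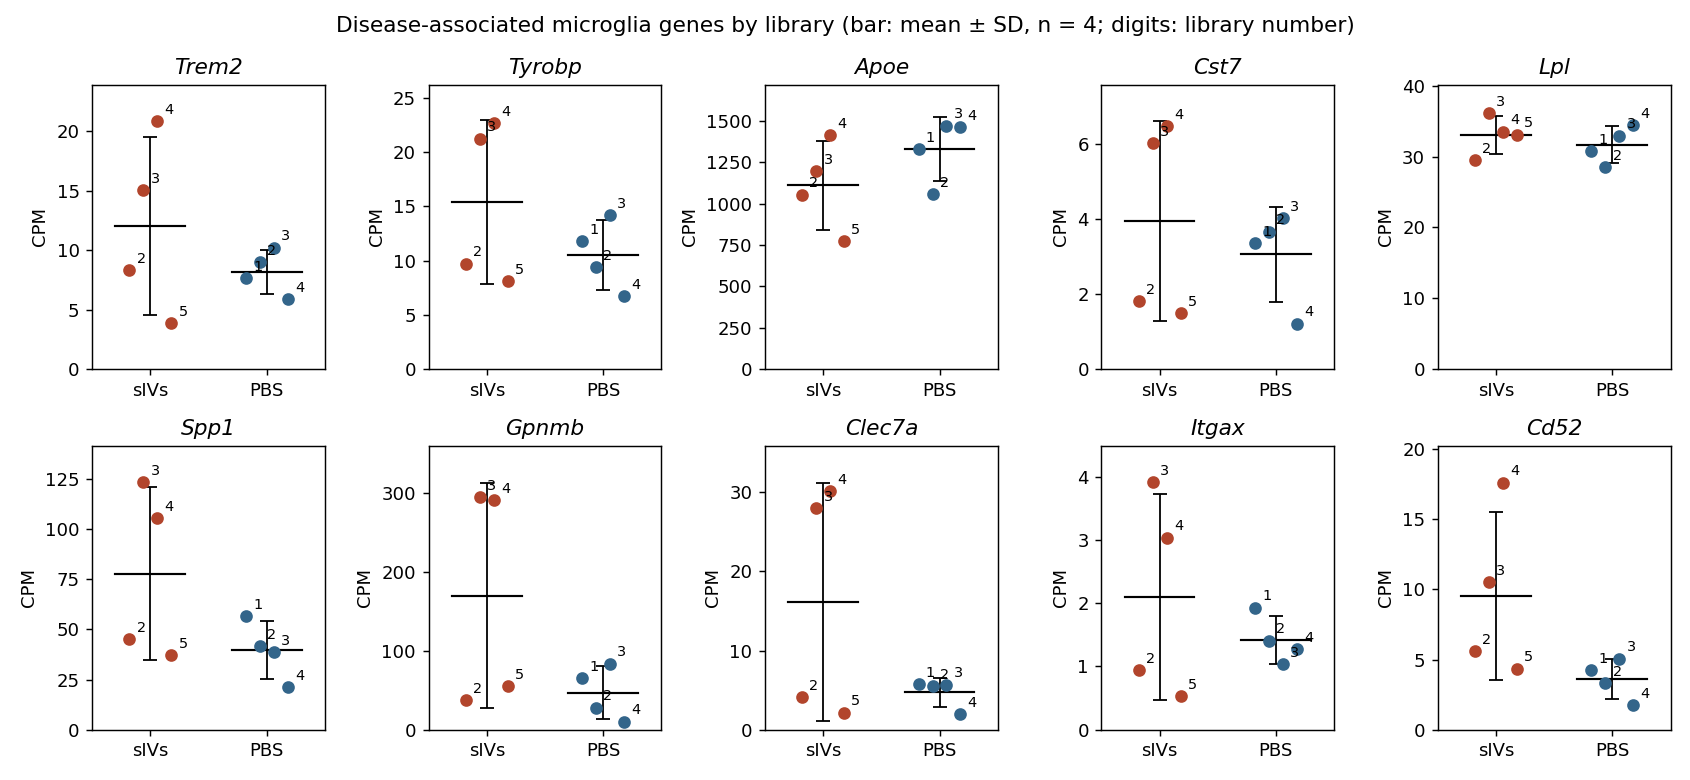
Normalised level (CPM, vertical axes starting at 0) of each gene in the 4 sIVs and the 4 PBS libraries; points are libraries with their numbers, and bars are mean ± SD (n = 4 each). In every panel but Apoe and Lpl, sIVs libraries 3 and 4 sit above all PBS libraries, while sIVs libraries 2 and 5 sit within or near the PBS range.

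Per unit of the deposited gene length, the 10 genes covered a wide span. Those lengths were 4946 bases for Trem2, 10478 for Lpl and 667 for Tyrobp, so the order of the genes depends on them. Apoe, the lipid carrier of glia and macrophages, was the most abundant. It stood at 517 ± 126 FPKM (the deposited values per gene length and depth) in sIVs and 619.9 ± 89.6 FPKM in PBS (SD, n = 4 each). Apoe did not overlap the next gene in either group. Spp1 followed, at 47.1 ± 26.0 FPKM in sIVs and 23.9 ± 8.82 FPKM in PBS. Itgax was the lowest, at 0.437 ± 0.337 FPKM in sIVs and 0.294 ± 0.0784 FPKM in PBS.

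Between these, the ranges of most neighbours overlapped. In sIVs it ran Gpnmb, Tyrobp, Cd52, Clec7a, Cst7, Lpl and Trem2, and every neighbouring pair below Apoe overlapped in range. In PBS it ran Tyrobp, Gpnmb, Cst7, Cd52, Lpl, Clec7a and Trem2. There the only neighbours below Apoe whose ranges did not overlap were Lpl above Clec7a and Trem2 above Itgax. Gpnmb stood above Tyrobp in 2 of 4 sIVs libraries, 3 and 4, and below Tyrobp in all 4 PBS libraries. Some neighbours whose ranges overlapped still kept 1 order in every library of a group, as Tyrobp over Cd52 in sIVs (23.1 and 8.00 FPKM on average) and Gpnmb over Cst7 in PBS (7.18 and 3.10 FPKM). In sIVs libraries 2 and 5 alone, the order of the averages was Apoe, Spp1, Tyrobp, Gpnmb, Cd52, Lpl, Cst7, Trem2, Clec7a and Itgax. Apoe averaged 426 FPKM there. Clec7a averaged 1.18 FPKM there, and 6.08 FPKM over all 4 sIVs libraries.

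The sequences just upstream of the transcription start are shown for the 4 genes whose windows hold a searched motif, since 8 of the 10 genes were high in the same libraries. Of the 10 genes 7 had a window in the RefSeq table (GRCm38.p6). Relative to the deposited gene start, the RefSeq start lay at -7 bases for Spp1, -28 for Gpnmb and 3 for Itgax. For Spp1 and Gpnmb the bases following the RefSeq start were not found in a GENCODE M21 transcript of the gene. The 250 bases before the RefSeq start were searched on both strands. The patterns were GGAAGT, the short core of a PU.1 site, and its longer form GAGGAAGT. For MiT/TFE factors the pattern was TCANGTG and for AP-1 it was TGANTCA, where N is any base. Both are looser than the sites these factors prefer. The last pattern was an interferon response element, which is GAAA, any pair of bases and GAAA again. The longer PU.1 form contains the short one, and the others do not contain each other. Capitals mark the matched letters (in Spp1 the longer PU.1 form adds the 2 bases before GGAAGT), and each sequence reads 5′ to 3′ on the strand of its gene.
Trem2 (chr17:48346151-48346400, plus strand): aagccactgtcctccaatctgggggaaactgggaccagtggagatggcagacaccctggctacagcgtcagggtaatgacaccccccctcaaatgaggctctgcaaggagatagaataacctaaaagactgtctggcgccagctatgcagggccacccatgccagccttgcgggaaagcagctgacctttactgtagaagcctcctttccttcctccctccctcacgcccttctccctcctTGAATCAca
Cst7 (chr2:150570165-150570414, plus strand): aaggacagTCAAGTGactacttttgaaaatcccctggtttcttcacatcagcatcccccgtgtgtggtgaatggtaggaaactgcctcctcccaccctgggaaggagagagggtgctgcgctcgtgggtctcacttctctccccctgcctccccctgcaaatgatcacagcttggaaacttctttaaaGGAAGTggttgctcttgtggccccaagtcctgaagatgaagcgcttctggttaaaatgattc
Spp1 (chr5:104434861-104435110, plus strand): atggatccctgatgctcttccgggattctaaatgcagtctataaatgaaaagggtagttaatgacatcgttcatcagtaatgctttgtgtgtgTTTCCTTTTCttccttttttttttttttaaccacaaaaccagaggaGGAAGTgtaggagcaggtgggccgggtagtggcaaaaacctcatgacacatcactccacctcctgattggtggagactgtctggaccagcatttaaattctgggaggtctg
Itgax (chr7:128129300-128129549, plus strand): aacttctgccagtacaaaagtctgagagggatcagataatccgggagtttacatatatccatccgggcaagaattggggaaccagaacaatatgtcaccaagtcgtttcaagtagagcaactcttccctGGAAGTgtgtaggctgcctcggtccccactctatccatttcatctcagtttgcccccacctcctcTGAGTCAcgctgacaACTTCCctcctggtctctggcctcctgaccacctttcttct

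GGAAGT was found in 3 of the 7 windows, those of Cst7, Spp1 and Itgax, against 19.7% of 32817 promoter windows of the same length. The longer GAGGAAGT was in 1, Spp1, against 2.44% of windows. TGANTCA was in 2, as TGAATCA in Trem2 and TGAGTCA in Itgax (6.75% of windows). TCANGTG was in 1, as TCAAGTG in Cst7 (12.2%), and the interferon element in 1, that of Spp1 (2.97%). The letters in Trem2 and Cst7 match the loose patterns and not the preferred sites. The windows of Apoe, Gpnmb and Clec7a held none of these letters. A match is a string of letters and not a measured binding site.

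The receptor and its adaptor come first. Trem2 encodes a lipid-sensing surface receptor of myeloid cells (ENSMUSG00000023992, GRCm38 chromosome 17, 48346401 to 48354147, plus strand). It stood at 8.30, 15.0, 20.9 and 3.88 CPM in sIVs libraries 2 to 5, against 7.66, 8.98, 10.2 and 5.91 CPM in PBS libraries 1 to 4. The groups overlapped, with libraries 3 and 4 above every PBS library and sIVs library 5 below every one. The log2 fold change was 0.56 ± 0.43 (SE, with an edgeR adjusted p of 0.561), and -0.44 ± 0.29 without sIVs libraries 3 and 4.

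Tyrobp encodes DAP12, the membrane adaptor that carries the signal of TREM2 and of other myeloid receptors (ENSMUSG00000030579, chromosome 7, 30413760 to 30417585, plus strand). Its level was 9.71, 21.2, 22.6 and 8.11 CPM in sIVs libraries 2 to 5, against 11.8, 9.43, 14.2 and 6.69 CPM in PBS libraries 1 to 4. Of the sIVs libraries, only 3 and 4 lay outside the PBS range. Its log2 fold change was 0.55 ± 0.35 (SE, with an edgeR adjusted p of 0.482), and -0.24 ± 0.25 without them. The ratio of Trem2 to Tyrobp, in FPKM within a library, was 0.115, 0.0954, 0.124 and 0.0645 over sIVs libraries 2 to 5, compared with 0.0877, 0.128, 0.0972 and 0.119 over PBS libraries 1 to 4. The 2 transcripts thus kept a ratio within the PBS range in 3 of the 4 sIVs libraries, and library 5 was lower. The size of the ratio depends on the gene lengths used, 4946 bases for Trem2 and 667 for Tyrobp.

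The other pattern receptors differed more between libraries. Clec7a encodes Dectin-1, the receptor for fungal beta-glucan, a marker of the TREM2-dependent step in mouse brain (ENSMUSG00000079293, chromosome 6, 129461591 to 129472779, minus strand, annotated in the deposited table as a polymorphic pseudogene). It stood at 4.08, 28.0, 30.1 and 2.15 CPM in sIVs libraries 2 to 5, against 5.73, 5.52, 5.69 and 1.92 CPM in PBS libraries 1 to 4. Libraries 3 and 4 held 5.94 and 6.39 times the PBS mean, while libraries 2 and 5 held 0.866 and 0.456 times. The coefficient of variation was 93.4% in sIVs, the highest of the 10 genes, and 39.6% in PBS. In log2 terms the fold change was 1.77 ± 0.76 (SE, with an edgeR adjusted p of 0.312), and -0.61 ± 0.40 without libraries 3 and 4.

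Itgax encodes integrin alpha X (CD11c), which pairs with the beta chain encoded by Itgb2 and marks dendritic cells as well as activated microglia (ENSMUSG00000030789, chromosome 7, 128129547 to 128150657, plus strand). It was read by few fragments, 14, 63, 55 and 9 counts in sIVs libraries 2 to 5, against 30, 22, 15 and 18 counts in PBS libraries 1 to 4. In CPM these are 0.937, 3.91, 3.04 and 0.537, against 1.93, 1.41, 1.04 and 1.28. Libraries 3 and 4 lay above every PBS library, and libraries 2 and 5 below every one. The log2 fold change was 0.57 ± 0.55 (SE, with an edgeR adjusted p of 0.648), and -0.96 ± 0.41 without libraries 3 and 4. The ratio of Itgax to Itgb2 in FPKM lay between 0.0867 and 0.146 in sIVs and between 0.125 and 0.381 in PBS. Its highest value was in PBS library 4, where Itgb2 stood at 2.13 CPM, against 5.26 to 6.70 CPM in the other PBS libraries, and Itgax lay within their range. Of 8 dendritic cell markers, 2 were abundant enough to test, and the summed level of all 8 ran from 13.2 to 13.8 CPM in sIVs and from 13.9 to 15.2 CPM in PBS. Flt3, a cytokine receptor gene of dendritic cell precursors, had the smaller p, with a log2 fold change of -0.41 ± 0.18 (SE, with an edgeR adjusted p of 0.319).

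Cd52 encodes a small glycosylphosphatidylinositol-anchored glycoprotein of leukocytes (ENSMUSG00000000682, chromosome 4, 134082448 to 134095082, minus strand). It stood at 5.62, 10.5, 17.6 and 4.36 CPM in sIVs libraries 2 to 5, against 4.25, 3.34, 5.07 and 1.78 CPM in PBS libraries 1 to 4. Here 3 of 4 sIVs libraries lay above every PBS library, and library 5 lay above 3 of the 4. It had the smallest p of the 10 genes and ranked 947th of 17725. Its log2 fold change was 1.40 ± 0.45 (SE, with an edgeR adjusted p of 0.223, and adjusted p = 0.0408 with DESeq2). Without libraries 3 and 4 it was 0.46 ± 0.32, the largest positive value among the 10 there (edgeR adjusted p = 0.567). The gene overlaps Crybg2 on the opposite strand in GENCODE M21, and Crybg2 had between 0 and 4 counts per library. Lymphocytes express Cd52 too. Of 10 T and NK cell markers, 2 were abundant enough to test, Cd8a and Lck. The summed level of all 10 was 2.34, 4.97, 4.86 and 2.45 CPM in sIVs libraries 2 to 5. In PBS libraries 1 to 4 it was 1.93, 3.40, 2.22 and 2.13 CPM, so sIVs libraries 3 and 4 lay above every one. Lck too was highest in sIVs libraries 3 and 4, at 2.73 and 2.43 CPM against at most 1.28 CPM in PBS. Cd8a lay within its PBS range in every sIVs library. Cd3e, a defining T cell gene, was at 0 in 5 of 8 libraries and at most 0.0641 CPM in the others. The part of lymphocytes in the level of Cd52 was not tested.

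Secreted and lysosomal products came next. Spp1 encodes osteopontin, a secreted phosphoprotein that binds integrins and CD44 and that retinal ganglion cells also make (ENSMUSG00000029304, chromosome 5, 104435118 to 104441050, plus strand). It stood at 45.2, 124, 105 and 37.1 CPM in sIVs libraries 2 to 5, against 56.5, 41.6, 38.7 and 21.2 CPM in PBS libraries 1 to 4. Libraries 3 and 4 were above every PBS library and libraries 2 and 5 within the PBS range. In log2 terms the fold change was 0.98 ± 0.41 (SE, with an edgeR adjusted p of 0.301), and 0.05 ± 0.26 without libraries 3 and 4. Cd44, its receptor gene, was above all PBS libraries in each of the 4 sIVs libraries, at 40.4, 193, 186 and 78.5 CPM in libraries 2 to 5 against 28.5, 38.7, 29.4 and 18.2 CPM in PBS libraries 1 to 4 (log2 fold change 2.12 ± 0.46 SE, with an edgeR adjusted p of 0.161). The ratio of Spp1 to Cd44 in FPKM was 4.60, 2.63, 2.33 and 1.94 over sIVs libraries 2 to 5, compared with 8.17, 4.42, 5.42 and 4.79 over PBS libraries 1 to 4. This was below all PBS libraries in 3 of the 4 sIVs libraries. Of 8 ganglion cell markers 7 had a negative fold change, and all 8 did so without libraries 3 and 4. Their summed level ran from 1079.6 to 1189 CPM in sIVs and from 1160 to 1462 CPM in PBS. Thy1, which had the smallest p of them, lay below all PBS libraries in each sIVs library, with a log2 fold change of -0.23 ± 0.09 (SE, with an edgeR adjusted p of 0.300).

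Cst7 encodes cystatin F, an inhibitor of lysosomal cysteine proteases such as cathepsin C (ENSMUSG00000068129, chromosome 2, 150570415 to 150578944, plus strand). It stood at 1.81, 6.03, 6.46 and 1.49 CPM in sIVs libraries 2 to 5, against 3.35, 3.66, 4.03 and 1.21 CPM in PBS libraries 1 to 4. Libraries 3 and 4 were the highest, while libraries 2 and 5 were below 3 of the 4 PBS libraries. The log2 fold change was 0.37 ± 0.52 (SE, with an edgeR adjusted p of 0.766), and -0.90 ± 0.41 without libraries 3 and 4. Ctsc, which encodes cathepsin C, was above all PBS libraries in each of the 4 sIVs libraries, with a log2 fold change of 1.08 ± 0.26 (SE, with an edgeR adjusted p of 0.167). The ratio of Cst7 to Ctsc in FPKM was 0.230, 0.357, 0.371 and 0.162 over sIVs libraries 2 to 5, compared with 0.460, 0.540, 0.778 and 0.243 over PBS libraries 1 to 4, and the groups overlapped through PBS library 4.

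Gpnmb encodes a transmembrane glycoprotein of lysosomes and melanosomes, found in lipid-laden phagocytes and in pigment cells (ENSMUSG00000029816, chromosome 6, 49036546 to 49070929, plus strand). It stood at 37.4, 295, 290.3 and 55.2 CPM in sIVs libraries 2 to 5, against 65.6, 27.9, 83.8 and 10.2 CPM in PBS libraries 1 to 4. Libraries 3 and 4 held 6.29 and 6.19 times the PBS mean. Gpnmb was also the most variable of the 10 genes in PBS, with a coefficient of variation of 72.0% and an 8.23-fold span between PBS libraries 3 and 4. Its log2 fold change was 1.85 ± 0.77 (SE, with an edgeR adjusted p of 0.300), the highest of the 10, and -0.02 ± 0.54 without sIVs libraries 3 and 4.

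Pigment cells also express Gpnmb. The summed level of 8 pigment epithelium and melanocyte markers was 134, 82.3, 129.9 and 50.8 CPM in sIVs libraries 2 to 5, against 124, 61.4, 292 and 92.6 CPM in PBS libraries 1 to 4. Their highest value and the highest PBS value of Gpnmb were both in PBS library 3, where the melanosome gene Pmel stood at 34.6 CPM, against at most 12.4 CPM in the other 7 libraries. In sIVs libraries 3 and 4, where Gpnmb was highest, the summed level of the pigment markers lay within the PBS range. Single markers did not all do so. Rpe65, the retinoid isomerase gene of pigment epithelium and the marker of smallest p (edgeR adjusted p = 0.448), stood at 1.93 and 4.42 CPM there, against 4.81 to 20.8 CPM in PBS. None of the 8 markers had both libraries above every PBS library. What pigment cells contribute to Gpnmb was not tested in either group.

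**Figure D2:**
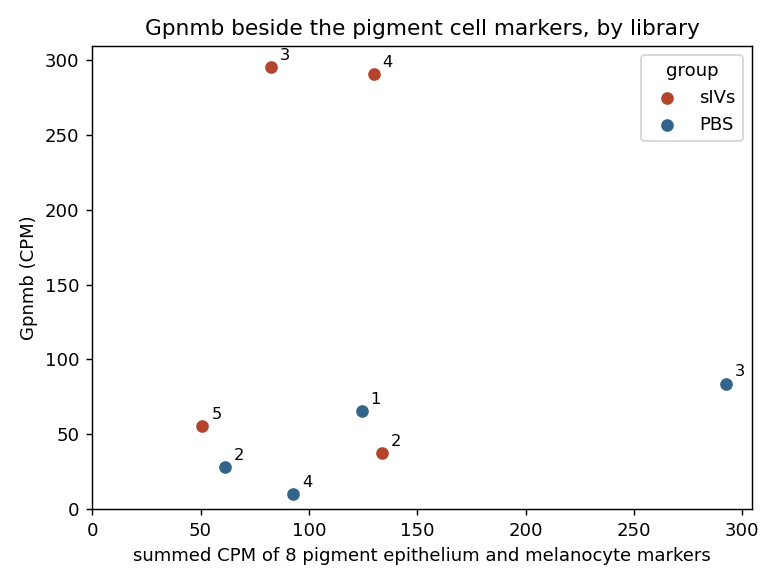
Gpnmb level (CPM, vertical axis) against the summed CPM of 8 pigment epithelium and melanocyte markers (horizontal axis), 1 point per library with its number, sIVs and PBS in separate colours. PBS library 3 has the highest marker sum, 292 CPM, with Gpnmb at 83.8 CPM, while sIVs libraries 3 and 4 have Gpnmb at 295 and 290.3 CPM with marker sums of 82.3 and 129.9 CPM.

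The lipid genes Apoe and Lpl were the ones in which libraries 3 and 4 did not both exceed PBS. Apoe (ENSMUSG00000002985, chromosome 7, 19696109 to 19699188, minus strand) stood at 1053, 1197, 1416 and 771 CPM in sIVs libraries 2 to 5, against 1331, 1057, 1471 and 1462 CPM in PBS libraries 1 to 4. No sIVs library lay above the highest PBS library, and libraries 2 and 5 lay below every one. It was the only one of the 10 with a negative log2 fold change, -0.26 ± 0.18 (SE, with an edgeR adjusted p of 0.522). It was -0.55 ± 0.15 without libraries 3 and 4 (edgeR adjusted p = 0.210). In retina Müller glia are a major source of Apoe. Of 8 Müller glia markers 6 had a positive and 2 a negative fold change, and their summed level ran from 2117 to 3453 CPM in sIVs and from 3278 to 4154 CPM in PBS. In 6 of the 8 markers both sIVs libraries 3 and 4 lay above every PBS library, against 24.8% of all genes. The median log2 fold change of the 8 was 0.16, and -0.49 without libraries 3 and 4, where 2 were positive and 6 negative. Glul, the glutamine synthetase gene, made up much of that sum. It was below all PBS libraries in each of the 4 sIVs libraries, at 1640, 986, 1093 and 1003 CPM in libraries 2 to 5 against 2002, 1923, 2546 and 2719 CPM in PBS libraries 1 to 4 (log2 fold change -0.96 ± 0.19 SE, with an edgeR adjusted p of 0.153). Vim and Sox9 were above every PBS library in 4 of 4. The part of Müller glia in the level of Apoe was not tested.

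Lpl, lipoprotein lipase, which frees fatty acids from lipoprotein triglyceride (ENSMUSG00000015568, chromosome 8, 68880491 to 68907448, plus strand), was the steadiest of the 10. It stood at 29.5, 36.1, 33.5 and 33.1 CPM in sIVs libraries 2 to 5, against 30.8, 28.5, 33.0 and 34.4 CPM in PBS libraries 1 to 4. The ranges overlapped almost entirely, with coefficients of variation of 8.18% in sIVs and 8.22% in PBS. In log2 terms the fold change was 0.06 ± 0.09 (SE, with an edgeR adjusted p of 0.770), and -0.02 ± 0.11 without libraries 3 and 4. Gpihbp1, which anchors the enzyme to capillaries, was at 0 in 5 of 8 libraries and gave no ratio.

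Among 17 genes of lipoprotein uptake, efflux and storage, 15 were tested, 10 had a positive and 5 a negative fold change, and 0 passed (edgeR; 3 at an unadjusted p below 0.05). Their median log2 fold change was 0.06, and -0.01 without sIVs libraries 3 and 4, where 6 were positive and 9 negative. Angptl4, an inhibitor of lipoprotein lipase, was the only one above all PBS libraries in each of the 4 sIVs libraries, at 2.14, 7.21, 6.13 and 0.895 CPM in libraries 2 to 5 against 0.773, 0.577, 0.764 and 0.569 CPM in PBS libraries 1 to 4 (log2 fold change 2.60 ± 0.61 SE, with an edgeR adjusted p of 0.167).

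**Figure D3:**
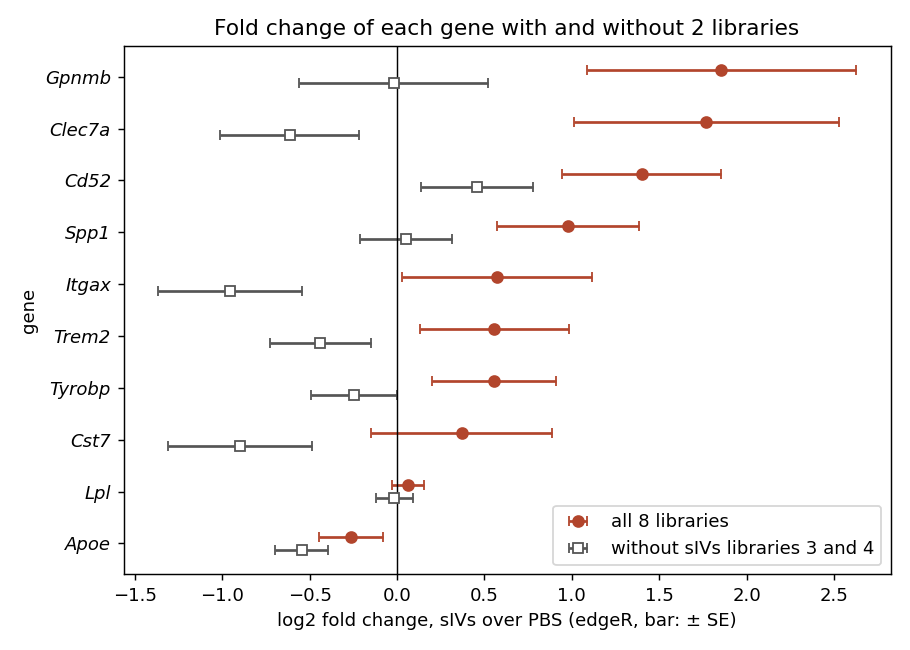
Log2 fold change of sIVs over PBS from edgeR (horizontal axis, bars ± SE) for each of the 10 genes, with all 8 libraries (filled circles) and without libraries 3 and 4 of sIVs (open squares). Without these libraries Trem2, Tyrobp, Cst7, Lpl, Gpnmb, Clec7a and Itgax turn negative, Apoe is negative in both fits, and Cd52 and Spp1 stay positive.

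Extremes recurred in the same libraries. Within sIVs, library 5 held the lowest value of 8 of the 10 genes and library 2 of the other 2, while library 4 held the highest of 6 and library 3 of 4. Within PBS, library 4 held the lowest value of 7 genes and library 3 the highest of 6. Relative to the mean of the PBS libraries, on the log2 CPM scale, the median over the 10 genes was -0.07, 1.29, 1.29 and -0.55 over sIVs libraries 2 to 5, compared with 0.30, 0.01, 0.37 and -0.70 over PBS libraries 1 to 4. The sIVs group was therefore the wider, and 2 of its libraries stood within the PBS range.

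Likeness to this median profile was measured as the root mean square distance, over 8 libraries, between a gene's log2 CPM profile (relative to its PBS mean) and the median profile of the 10, among 16459 other genes averaging 1 CPM or more. The nearest was Cx3cr1, the fractalkine receptor gene of microglia, at a distance of 0.131. The complement genes C1qb and C1qa followed at 0.153 and 0.156, then Pik3cg, a phosphoinositide 3-kinase gene of leukocytes, at 0.160 and Unc93b1, a chaperone of endosomal Toll-like receptors, at 0.171. Of the 10 genes themselves Tyrobp lay closest, at 0.143, and Gpnmb farthest, at 1.12. Apoe and Lpl were each other's nearest gene within the panel, at 0.338.

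**Figure D4:**
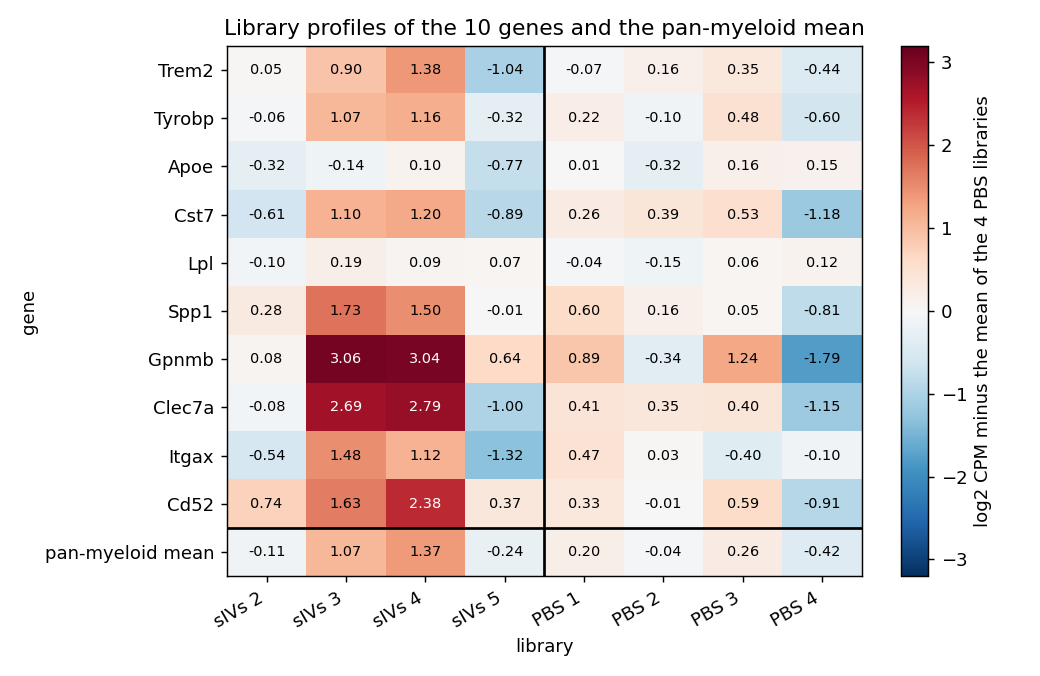
Log2 CPM of each gene in each library minus the mean of the 4 PBS libraries (colour and printed value; libraries across, genes down, sIVs left of the line), with the mean of 13 pan-myeloid markers in the last row. Values of sIVs libraries 3 and 4 are positive for every gene but Apoe in library 3, and the pan-myeloid mean has 1.07 and 1.37 there.

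Transcripts of myeloid cells in general were high in the same libraries. The mean of 13 pan-myeloid markers, none of them among the 10 genes, stood at -0.11, 1.07, 1.37 and -0.24 on the log2 scale over sIVs libraries 2 to 5, compared with 0.20, -0.04, 0.26 and -0.42 over PBS libraries 1 to 4. Their summed level ran from 204 to 604 CPM in sIVs and from 190 to 315 CPM in PBS, and none was at 0. Subtracting the pan-myeloid mean from each gene's profile gives its level relative to these transcripts. On that scale Trem2 and Tyrobp lay close to 0 in sIVs libraries 3 and 4, at -0.17 and 0.01 for Trem2 and at -0.00 and -0.21 for Tyrobp. Cst7 did too, at 0.03 and -0.16.

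Gpnmb, Clec7a, Cd52 and Spp1 exceeded the pan-myeloid mean in both of these libraries. Gpnmb stood at 1.99 and 1.67 in sIVs libraries 3 and 4, with a highest PBS value of 0.99, and Clec7a at 1.62 and 1.43, with a highest PBS value of 0.39. Spp1 stood at 0.66 and 0.13 there, the first above every PBS library, and Itgax at 0.41 and -0.25. Cd52 was the only one of the 10 above all PBS libraries in each of the 4 sIVs libraries on this scale, at 0.84, 0.56, 1.01 and 0.60 over libraries 2 to 5, compared with 0.14, 0.02, 0.33 and -0.49 over PBS libraries 1 to 4. Of all genes 0.626% did the same, and 0.914% lay below every PBS library. Apoe and Lpl lay below the pan-myeloid mean in libraries 3 and 4, at -1.21 and -1.26 for Apoe and at -0.88 and -1.28 for Lpl. The pan-myeloid mean was itself at 1.07 and 1.37 there, so any gene at its PBS level would fall below it by those amounts. These values describe the libraries and were not tested.

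**Figure D5:**
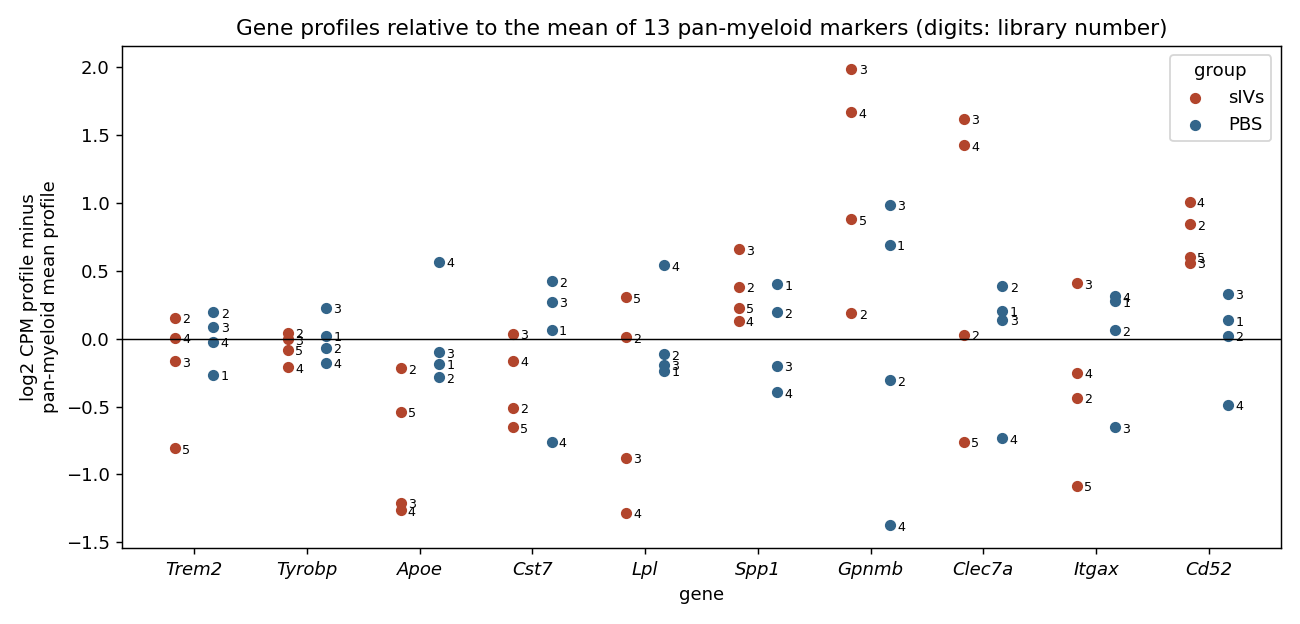
Each gene's log2 CPM profile minus the mean profile of 13 pan-myeloid markers (vertical axis), with sIVs to the left and PBS to the right of each gene (horizontal axis) and library numbers beside the points. Cd52 is the gene whose 4 sIVs libraries, between 0.56 and 1.01, all lie above its PBS libraries, while Trem2 and Tyrobp of libraries 3 and 4 lie near 0.

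For the gene lists above and below, 49% of all genes tested had a positive fold change, and 49.8% without sIVs libraries 3 and 4. At an unadjusted p below 0.05 (edgeR), 9.61% were higher and 5.63% lower. Both sIVs libraries 3 and 4 lay above every PBS library in 24.8%. All 4 sIVs libraries lay above in 4.42% and below in 3.36%. Of 23 further disease-associated microglia genes, 20 had a positive and 3 a negative fold change, with a median of 0.77. Of these, 0 passed (edgeR; 14 at an unadjusted p below 0.05, all higher). In 20 of them both sIVs libraries 3 and 4 lay above every PBS library, and the median without these was 0.04, with 12 positive and 11 negative. In 3 of 23, all 4 sIVs libraries lay above every PBS library. These were Lgals3, which encodes galectin-3, Csf1, a growth factor for microglia, and the chemokine gene Ccl6. Csf1 stood at 17.1, 42.2, 46.1 and 17.5 CPM in sIVs libraries 2 to 5, against 16.7, 15.8, 14.4 and 11.8 CPM in PBS libraries 1 to 4 (log2 fold change 1.07 ± 0.33 SE, with an edgeR adjusted p of 0.205). Cd63, a tetraspanin gene of endosomes and lysosomes, had the smallest p of the list (edgeR adjusted p = 0.158).

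Downstream of the receptors, 14 of 15 genes of TREM2 and Dectin-1 signalling were tested. Of these, 13 had a positive fold change, with a median of 0.58, and 0 passed (edgeR; 4 at an unadjusted p below 0.05). In 12 of them both sIVs libraries 3 and 4 lay above every PBS library. Without these libraries 7 were positive and 7 negative, at a median of -0.03. Ptpn6, which encodes the inhibitory phosphatase SHP-1, had the smallest p, at 4.29, 10.7, 14.4 and 3.58 CPM in sIVs libraries 2 to 5 against 3.48, 3.66, 3.89 and 2.92 CPM in PBS libraries 1 to 4 (edgeR adjusted p = 0.234). Adam17, a protease that sheds TREM2 from the cell surface, and Bcl10, an adaptor downstream of Dectin-1, were above every PBS library in 4 of 4, at small log2 fold changes of 0.21 ± 0.07 and 0.20 ± 0.10 (SE, with an edgeR adjusted p of 0.244 and 0.356). Among 10 partner genes of osteopontin, integrin alpha X and cystatin F, all 10 had a positive fold change, with a median of 0.42, and 0 passed (edgeR; 5 at an unadjusted p below 0.05). In 9 of the 10 both sIVs libraries 3 and 4 lay above every PBS library, and without these 6 were positive and 4 negative, at a median of 0.12.

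Among 12 transcription factor genes of the MiT/TFE and PU.1 families and related myeloid regulators, 10 were tested and 8 had a positive fold change, with a median of 0.51, and 0 passed (edgeR; 5 at an unadjusted p below 0.05). Without sIVs libraries 3 and 4 the median was 0.13, again with 8 positive. Spi1, which encodes PU.1, the master regulator of myeloid cells, stood at 2.88, 6.96, 9.50 and 2.51 CPM in sIVs libraries 2 to 5, against 2.12, 1.60, 2.43 and 1.21 CPM in PBS libraries 1 to 4. All 4 sIVs libraries were above every PBS library (log2 fold change 1.57 ± 0.45 SE, with an edgeR adjusted p of 0.188). Bhlhe40, a basic helix-loop-helix repressor gene, did the same, with a log2 fold change of 0.87 ± 0.18 (SE, with an edgeR adjusted p of 0.158).

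Resting-state genes were mixed. Of 12 homeostatic microglia markers 11 were tested, 8 with a positive and 3 with a negative fold change, at a median of 0.24, and 0 passed (edgeR; 0 higher and 2 lower at an unadjusted p below 0.05). In 7 of the 11 both sIVs libraries 3 and 4 lay above every PBS library. Without these libraries 11 of 11 were negative at a median of -0.34, and 0 passed (edgeR; 3 lower at an unadjusted p below 0.05). With all libraries the 2 were Siglech and P2ry12, and both lay below all PBS libraries in each of the 4 sIVs libraries. P2ry12, the nucleotide receptor that guides microglial processes to damage, stood at 4.08, 5.03, 5.74 and 3.04 CPM in sIVs libraries 2 to 5, against 7.73, 6.41, 7.70 and 6.05 CPM in PBS libraries 1 to 4 (log2 fold change -0.64 ± 0.21 SE, with an edgeR adjusted p of 0.223). Of 13 pan-myeloid markers all 13 had a positive fold change, with a median of 0.69, and all had both sIVs libraries 3 and 4 above every PBS library. Without these libraries 2 were positive and 11 negative at a median of -0.17. Itgam was the only one of them above PBS in 4 of 4.

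Of 12 monocyte and border macrophage markers, 5 passed the filter on low counts, 2 with a positive and 3 with a negative fold change. Of these, 0 passed the test (edgeR; 0 at an unadjusted p below 0.05), and F13a1 had the smallest p (edgeR adjusted p = 0.698). Without sIVs libraries 3 and 4, 3 of them were positive and 2 negative. The other 7 failed the filter, which asks for a minimum level in 4 libraries. Among these, Chil3, Ccr2, Ly6c2 and Plac8 were higher in sIVs libraries 3 and 4 than in every other library. Pf4, S100a8 and S100a9 were instead highest in sIVs library 5, at 1.07, 1.31 and 1.67 CPM. Of the tested markers, Mrc1 and Cd163 were lowest in sIVs library 4, at 0.663 and 0.0552 CPM. Ly6c2 stood at 0.0670, 1.12, 3.09 and 0 CPM in sIVs libraries 2 to 5, against 0 CPM in all PBS libraries. The summed level of the 12 was 24.0, 49.8, 44.7 and 30.2 CPM in sIVs libraries 2 to 5, against 23.3, 23.9, 23.9 and 21.4 CPM in PBS libraries 1 to 4. Lyve1, a gene of border macrophages and lymphatic vessels, made up 14.2 to 20.1 CPM of that sum in every library. The sum of the other 11, taken after these values were seen, was 7.50, 34.9, 28.5 and 10.1 CPM in sIVs libraries 2 to 5, against 9.14, 7.25, 6.59 and 5.62 CPM in PBS libraries 1 to 4, with sIVs library 2 inside the PBS range. Of 8 endothelial and pericyte markers 7 had a positive fold change, and 4 did so without sIVs libraries 3 and 4. In 5 of the 8 both of these libraries lay above every PBS library. The sum of the 8 ran from 376 to 729 CPM in sIVs and from 412 to 483 CPM in PBS. Kdr made up much of that sum, at 226, 514, 506 and 191 CPM in sIVs libraries 2 to 5, against 240 to 278 CPM in PBS. Cldn5, the tight junction gene, had the smallest p of these 8 markers (edgeR adjusted p = 0.403). Sag, which encodes rod arrestin, had it among the rod markers (edgeR adjusted p = 0.360). The part of monocytes in the levels of the 10 genes was not tested.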

How the data were processed

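The authors deposited whole-number gene counts and FPKM values for 54532 genes in 8 libraries, and the count and FPKM columns were matched to samples by their titles. Per the labels' protocols, RNA was TRIzol-extracted, poly(A)-selected and made into dUTP strand-marked paired-end libraries. Per the submitters' processing notes the build was mm10. The aligner, counter, annotation release and strand setting are not given in the sources used here. Start and end coordinates of all 10 genes were identical in GENCODE M21.

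Counts were filtered with filterByExpr and scaled by TMM (trimmed mean of M values), and edgeR 4.0.16 (R 4.3.3) fitted glmQLFit and glmQLFTest on group alone, and p-values were adjusted over 17725 genes by Benjamini-Hochberg. Standard errors were derived from the F statistic. CPM divide counts by the library size after TMM, and log2 profiles add 0.5 counts first. Alternatives used DESeq2 1.42.0 and limma 3.58.1. On simulated counts for this comparison with the pooled spread (17473 genes run), edgeR recovered 62.6% of 2-fold and 96.7% of 4-fold changes. It also called 12 unchanged genes. The simulation gave both groups the same spread and did not let libraries shift together. In the data the biological coefficient of variation was 22.3% in sIVs and 8.83% in PBS, so these shares may not hold for the data. Every pair of libraries differed by more than sampling noise (lowest chi-square per gene 3.65).

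The members, gene lists, motifs and the leave-out of sIVs libraries 3 and 4 were chosen with earlier results of these data known. All 10 members are named. From each list the gene of smallest p is named, with up to 3 genes whose sIVs libraries all lay on one side of PBS, and the 5 genes nearest the panel's median profile. Lyve1, Chil3, Ccr2, Ly6c2, Plac8, Pf4, S100a8, S100a9, Mrc1, Cd163, Kdr, Cd3e, Cd8a, Crybg2 and Pmel were named after their values were seen. Promoter sequences come from RefSeq.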

Additional observations from a re-analysis of the deposited data

Results flagged for a closer look

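In PBS library 4 the level of Clec7a was 1.92 CPM, against 5.73, 5.52 and 5.69 CPM in PBS libraries 1 to 3, a gap to the nearest library that exceeded Dixon's limit for 4 values. Chance flags about 1 in 20 groups, and 20 groups of 4 were looked at here. PBS library 4 also held the lowest PBS value of 6 other genes of the panel, and the pan-myeloid mean was lowest there among the PBS libraries.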

How the results depend on the processing

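Over 20 alternatives to the edgeR fit, the 10 genes gave 200 fits. Of these 187 kept the direction and the side of the threshold, 6 passed and 7 reversed. All 7 reversals came without sIVs libraries 3 and 4: Trem2 -0.44, Tyrobp -0.24, Cst7 -0.90, Lpl -0.0162, Gpnmb -0.018, Clec7a -0.61 and Itgax -0.96 on the log2 scale. That fit called 3 genes in all and 0 of the 10. DESeq2 called 549 genes and 1 of the 10. It was run on 33760 genes but sets some low-count genes aside before adjusting, so its adjusted p-values cover fewer genes. Using sample quality weights, limma-voom called 4973 of 17725 and 5. With no filter on low counts edgeR called 152 of 33760 and 0. The cause of these differences was not tested. Leaving out 1 library gave between 0 and 1331 genes, the 1331 without sIVs library 2, with 0 of the 10 in each. The median over the 10 genes was 0.56 and ran from -0.34 to 0.92, and from 0.32 to 0.87 with 1 library left out. With a replicate block by title or by biosample number, 0 genes passed, and the median over the 10 was 0.86 and 0.42. Deviations of same-numbered libraries correlated at -0.06 to 0.05 by title and -0.07 to 0.09 by biosample number, and not every library correlated best with its own number, so the numbers were not taken to pair samples. Itgax and Cst7 had as few as 9 and 17 counts in a library, which limits their precision.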
